A study of Homo sapiens with 6 samples.

Results

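The sialyltransferases, fucosyltransferases and branching N-acetylglucosaminyltransferases are the Golgi enzymes that shape the outer sugars of glycoproteins and glycolipids. They were taken from the read count table as the gene symbols that start with ST3GAL, ST6GAL, ST6GALNAC, ST8SIA, FUT, GCNT or MGAT followed by a digit, without ST3GAL5, which gave 43 of 23250 genes. Their transcripts were compared in the established human line OCI-LY1, which derives from diffuse large B cell lymphoma, a tumour of mature B cells. All 6 samples had been transfected with siRNA against BCL6 and carried an introduced copy of BCL6, which was wild-type in 3 libraries (wild-type rescue) and mutated in the RD2 repression domain in the other 3 (mutant rescue). BCL6 represses transcription and is required by germinal centre B cells. The design has no library without a rescue, it uses 1 cell line, and no label states that the libraries of a group are separate cultures. The p-values therefore reflect library-to-library spread alone, part or all of which may be technical.

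Glycan chains are built step by step, most of these enzymes adding 1 sugar in 1 linkage. On N-glycans, MGAT1 and MGAT2 start the antennae, MGAT4A, MGAT4B and MGAT5 add further branches, and MGAT3 adds a bisecting N-acetylglucosamine that hinders further branching. FUT8 puts fucose on the innermost part of the N-glycan. GCNT enzymes branch O-glycans and lactosamine chains, and sialyltransferases cap the ends. In B cells, ST6GAL1 makes the sialylated ligand of CD22, an inhibitory receptor, and lactosamine chains are ligands of galectins.

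Library totals ranged from 26298456 to 27574867 counts, so 3 counts, the limit that a count of 0 allows, correspond to 0.109 to 0.115 CPM (counts scaled to library size, here by the TMM method), which covers counting error only. BCL6 itself was lower in the mutant rescue (14166, 13726 and 13827 counts) than in the wild-type rescue (19069, 16998 and 18789), with a log2 fold change of -0.38 (SE 0.032; quasi-likelihood test of edgeR, adjusted p = 7.91e-10). Gene-level counts cannot divide endogenous from introduced BCL6 reads, and the mutation, the amount of BCL6 and differences between cultures cannot be told apart. Mutant rescue library 2 stood apart from the other two mutant libraries, with a chi-square per degree of freedom of 5.47 and 4.36 against them, where the other pair gave 1.75. Wild-type library 2 gave 3.01 against library 1 and 1.91 against library 3, where the other wild-type pair gave 1.60. Of the markers checked, the summed level of 5 B cell genes was 2733.7 to 2740.8 CPM in the wild-type and 2538.8 to 2611.9 CPM in the mutant rescue. Summed T cell, myeloid and fibroblast markers were under 1 CPM in every library, and CD3E, CD2 and COL3A1 had 0 counts. The 5 epithelial markers summed to 15.5 to 16.8 CPM in the wild-type and 3.47 to 4.06 CPM in the mutant rescue, almost all of it EPCAM (423 to 437 against 93 to 109 counts), with KRT19 at 0. The part of these differences in the results was not tested, and in bulk RNA fewer cells expressing a gene and less RNA per cell cannot be told apart.

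Of the 43 genes, 19 had enough reads to be tested, and 12 of these rose and 3 fell with the mutant (quasi-likelihood test of edgeR, p under 0.05 after Benjamini-Hochberg adjustment across the 12406 genes tested). All 8 tested sialyltransferase genes were among those that rose, together with FUT8, GCNT1, MGAT1 and MGAT2, while MGAT3, MGAT5 and GCNT2 fell. The share of all tested genes past the same threshold was 70.1%, with 35.4% higher and 34.8% lower, so that a call as such was common and the 15 calls of 19 (78.9%) were near the background. The median log2 fold change of the 19 genes was 0.39 against 0.01 over all tested genes, and the median absolute log2 fold change was 0.45 against 0.29. When a change of more than 1.2-fold was required (glmTreat in edgeR), 10 of the 19 were higher and 3 lower, where 37.0% of all tested genes passed, 19.2% higher and 17.7% lower. The 2 rescues had no overlapping values in 17 of the 19, against 72.4% of all tested genes. The lowest count of any of the 19 in any library was 54, so none entered the test through 1 group alone. Leaving out mutant rescue library 2 kept these 12 and 3 calls and added 1, MGAT4B. The genes together took 0.190% to 0.194% of a wild-type rescue library's counts and 0.213% to 0.218% of a mutant rescue library's.

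**Figure D1:**
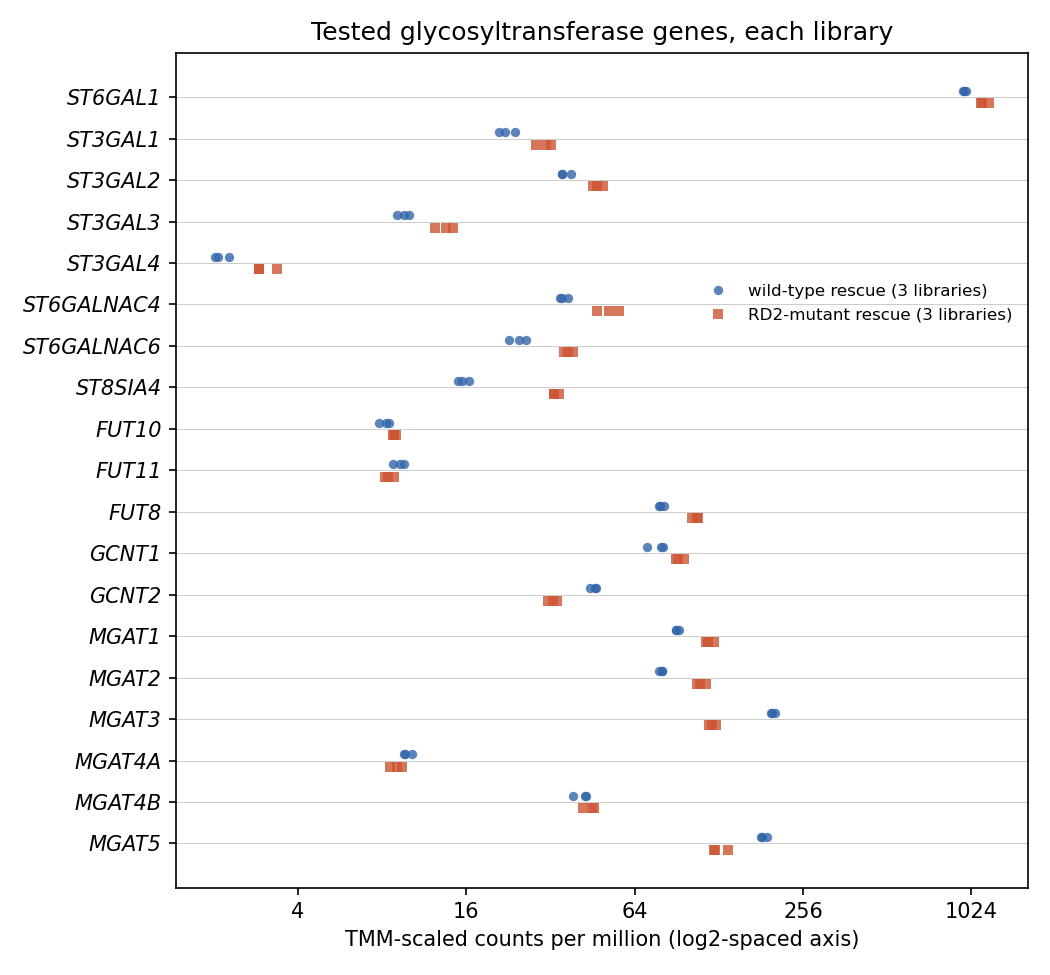
Level of each of the 19 tested genes in each library, as TMM-scaled CPM on a log2-spaced axis, with wild-type rescue libraries as circles and mutant rescue libraries as squares. ST6GAL1 lies far above the other genes in both rescues, and for MGAT3, MGAT5 and GCNT2 the squares lie to the left of the circles.

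ST6GAL1, the enzyme that caps N-glycans with the form of sialic acid bound by CD22, was the most abundant of these transcripts. It reached 953.9, 963.8 and 976.7 CPM in the wild-type rescue and 1112.3, 1183.3 and 1116.4 CPM in the mutant rescue. The groups did not overlap, but the change was small, 1.18-fold (log2 fold change 0.24, SE 0.030; edgeR, adjusted p = 5.90e-07), and did not pass against a minimum of 1.2-fold (glmTreat, adjusted p = 0.879). Per kilobase of the longest annotated transcript, its level was 197.2 CPM in the wild-type and 232.4 CPM in the mutant rescue, and it made up 81.8% and 78.1% of the summed level per length of the 8 tested sialyltransferase genes. Its share was 81.1% to 82.3% in the wild-type libraries and 77.0% to 79.6% in the mutant libraries. The log2 fold changes of the other 7 sialyltransferase genes ranged from 0.39 to 1.10.

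The ST3GAL enzymes add sialic acid to terminal galactose in another linkage, ST3GAL1 and ST3GAL2 mainly on O-glycans and glycolipids, ST3GAL3 and ST3GAL4 mainly on lactosamine ends. ST3GAL1 was at 20.9, 22.1 and 23.9 CPM in the wild-type rescue and at 28.5, 32.2 and 30.9 CPM in the mutant rescue, a 1.37-fold rise. ST3GAL2 rose 1.31-fold, from 37.8, 35.1 and 35.3 CPM to 45.6, 47.1 and 49.5 CPM. For both genes every mutant library lay above every wild-type library. ST3GAL3 went from 9.55, 9.07 and 10.0 CPM to 14.3, 12.4 and 13.6 CPM, which was 1.40-fold. ST3GAL4 was the least abundant tested gene, at 2.26, 2.07 and 2.02 CPM in the wild-type and 2.91, 2.90 and 3.38 CPM in the mutant rescue, and its 1.45-fold rise had the widest error (log2 fold change 0.53, SE 0.15, 95% interval 0.23 to 0.84; edgeR, adjusted p = 0.00286). The log2 fold changes of the 4 genes ranged from 0.39 to 0.53 and their 95% intervals overlapped one another.

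Enzymes that extend or decorate sialylated chains rose as well. ST6GALNAC4, which adds a further sialic acid to sialylated O-glycans, measured 37.0, 34.6 and 35.1 CPM in the wild-type rescue and 51.8, 47.1 and 56.2 CPM in the mutant rescue (log2 fold change 0.54, SE 0.057; edgeR, adjusted p = 6.74e-08). ST6GALNAC6, which acts on glycolipids and other sialylated chains, rose 1.51-fold, from 26.1, 22.8 and 24.7 CPM to 38.6, 35.9 and 37.0 CPM (log2 fold change 0.60). ST8SIA4, a polysialyltransferase, had the largest change of the 19. Its level was 15.4, 16.4 and 14.9 CPM in the wild-type rescue and 33.0, 34.4 and 32.9 CPM in the mutant rescue, which was 2.15-fold (log2 fold change 1.10, SE 0.057; edgeR, adjusted p = 4.37e-13). It alone of the 19 changed by at least 2-fold, and the size of its change exceeded that of 92.1% of all tested genes. Per length it remained low beside ST6GAL1, at 5.30 CPM per kilobase in the mutant rescue.

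**Figure D2:**
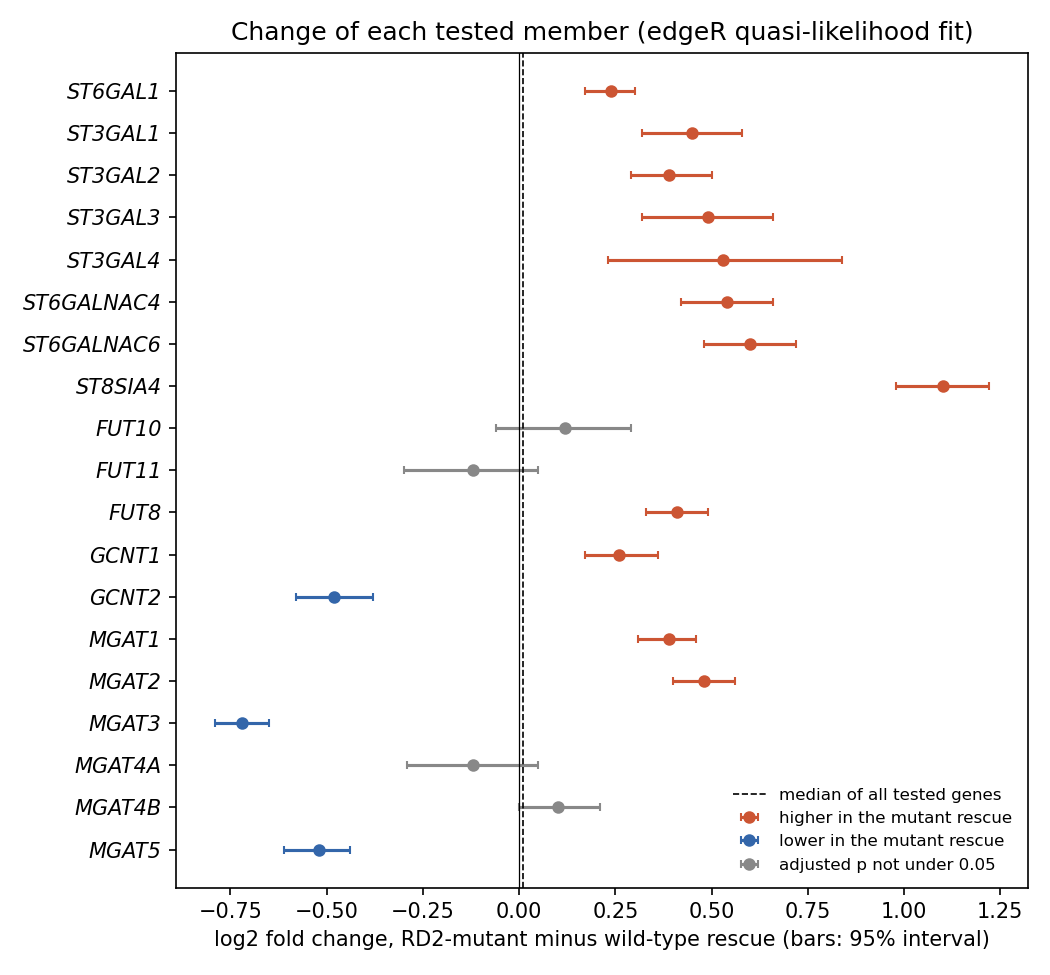
Log2 fold change of each tested gene, mutant minus wild-type rescue, with its 95% interval from the edgeR fit and a dashed line at the median of all tested genes (0.01). The 8 sialyltransferase genes lie to the right of the line, from 0.24 (ST6GAL1) to 1.10 (ST8SIA4), and MGAT3 lies farthest to the left at -0.72.

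Among fucosyltransferases, FUT8 was the one that changed. It is the enzyme of core fucosylation, and stood at 78.9, 78.2 and 81.5 CPM in the wild-type and 102.4, 108.3 and 106.6 CPM in the mutant rescue (1.33-fold, log2 fold change 0.41, SE 0.037; edgeR, adjusted p = 3.90e-09). All 3 mutant libraries exceeded all wild-type libraries, and FUT8 made up 72.1% and 77.8% of the summed level per length of the 3 tested FUT genes. FUT10, a less well characterised member, measured 7.80, 8.50 and 8.25 CPM against 8.77, 9.01 and 8.86 CPM, and did not pass the test although the groups did not overlap (log2 fold change 0.12, 95% interval -0.06 to 0.29; edgeR, adjusted p = 0.212). FUT11, also less well characterised, measured 8.79, 9.60 and 9.24 CPM against 8.17, 8.38 and 8.86 CPM, with overlapping groups (log2 fold change -0.12, 95% interval -0.30 to 0.05; edgeR, adjusted p = 0.207). Exons of FUT10 overlap those of TTI2 on the same strand in the annotation, so reads of the overlap cannot be assigned to either with certainty.

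The N-glycan branching enzymes split. MGAT1, which starts the complex N-glycan, measured 92.0, 90.3 and 89.8 CPM in the wild-type rescue and 116.7, 115.4 and 123.3 CPM in the mutant rescue (1.31-fold, log2 fold change 0.39, SE 0.037; edgeR, adjusted p = 7.62e-09). MGAT2, which starts the other antenna of the same core, rose 1.39-fold, from 78.0, 80.5 and 80.0 CPM to 107.0, 115.7 and 109.3 CPM (log2 fold change 0.48, SE 0.038; edgeR, adjusted p = 5.45e-10). Both starting enzymes were thus higher in all 3 mutant libraries. MGAT3, the bisecting enzyme, had the most significant fall, from 196.7, 203.0 and 199.2 CPM to 121.3, 118.2 and 125.1 CPM, 1.64-fold lower (log2 fold change -0.72, SE 0.034; edgeR, adjusted p = 8.88e-14). MGAT5, whose branch carries long lactosamine chains, fell 1.44-fold, from 181.5, 190.6 and 183.3 CPM to 123.5, 138.5 and 124.4 CPM (log2 fold change -0.52, SE 0.041; edgeR, adjusted p = 4.57e-10). Mutant library 2 was the highest of the 3 for MGAT5, and without it the log2 fold change was -0.58.

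MGAT4A and MGAT4B, the paired enzymes of a further branch, did not pass the test. MGAT4A measured 9.66, 10.2 and 9.57 CPM in the wild-type and 9.03, 8.56 and 9.43 CPM in the mutant rescue, without overlap of the groups (log2 fold change -0.12, 95% interval -0.29 to 0.05; edgeR, adjusted p = 0.182). MGAT4B measured 42.8, 38.7 and 42.4 CPM against 45.1, 42.0 and 45.9 CPM (log2 fold change 0.10, 95% interval 0.00 to 0.21; edgeR, adjusted p = 0.0816). The call on MGAT4B was unstable, since 4 alternatives placed it under the threshold, among them leaving out mutant library 2 (adjusted p = 0.0122). Its exons overlap SQSTM1 on the opposite strand, a gene whose counts were 5618, 5374 and 5747 with wild-type and 3532, 3545 and 3617 with mutant BCL6. The strand setting of the counting is not given in the sources used here, so reads of that overlap cannot be told apart.

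The order of the MGAT transcripts per length changed with these differences. In the wild-type rescue MGAT3 led with 39.4 CPM per kilobase, followed by MGAT2 (29.6) and MGAT5 (22.4). In the mutant rescue MGAT2 led with 41.2 CPM per kilobase, followed by MGAT3 (24.0) and MGAT5 (15.6). As shares of the summed level per length of the 6 tested MGAT genes, MGAT3 went from 33.6%, 34.2% and 33.7% to 22.2%, 21.0% and 22.3%. MGAT2 went from 25.1%, 25.5% and 25.5% to 36.9%, 38.8% and 36.8%, so that its share exceeded that of MGAT3 in every mutant library and in no wild-type library. These levels use the longest annotated transcript of each gene, and which transcript was expressed is not known from gene counts.

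Of the GCNT enzymes, both tested members changed, in opposite directions. GCNT1, which branches the core of O-glycans, measured 71.1, 80.9 and 79.8 CPM in the wild-type and 90.3, 96.0 and 91.5 CPM in the mutant rescue (log2 fold change 0.26, SE 0.046; edgeR, adjusted p = 3.56e-05), and did not pass against a minimum of 1.2-fold (glmTreat, adjusted p = 0.488). GCNT2, which makes I-branches on lactosamine chains and is known from germinal centre B cells, fell 1.40-fold, from 44.2, 46.1 and 46.7 CPM to 31.3, 33.9 and 32.7 CPM (log2 fold change -0.48, SE 0.048; edgeR, adjusted p = 1.35e-08). Every wild-type library lay above every mutant library for GCNT2, and below for GCNT1. GCNT2 has several transcript forms with different start sites, which the gene counts do not separate. GCNT1 overlaps PRUNE2 on the opposite strand, a gene with at most 38 counts in any library.

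Promoter sequences are shown for 4 genes, the called members that fell and have an entry (GCNT2, MGAT5) and 2 of those that rose (ST8SIA4, MGAT2), picked after their values were seen. GCNT1 and ST3GAL4, which rose, have 3 and 8 CG pairs in the 300 bases around their start, against 6 and 4 for GCNT2 and MGAT5. MGAT3, which also fell, has no entry. A relation of base composition to direction was not tested. The sequences shown are the 250 bases before the annotated start, from RefSeq on GRCh38.p14, another build than the hg19 of the counts. In the order printed, they are chr5:100903283-100903532 on the minus strand, chr14:49620549-49620798 on the plus strand, chr6:10585510-10585759 on the plus strand and chr2:134253822-134254071 on the plus strand. Each is written 5′ to 3′ on the gene's strand, with CG pairs in capitals.
ST8SIA4: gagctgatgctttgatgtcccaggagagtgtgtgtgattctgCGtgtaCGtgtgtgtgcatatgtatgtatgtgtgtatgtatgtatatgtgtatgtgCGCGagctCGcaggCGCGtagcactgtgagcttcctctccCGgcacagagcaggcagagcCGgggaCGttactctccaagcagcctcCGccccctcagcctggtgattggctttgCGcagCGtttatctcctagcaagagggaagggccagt
MGAT2: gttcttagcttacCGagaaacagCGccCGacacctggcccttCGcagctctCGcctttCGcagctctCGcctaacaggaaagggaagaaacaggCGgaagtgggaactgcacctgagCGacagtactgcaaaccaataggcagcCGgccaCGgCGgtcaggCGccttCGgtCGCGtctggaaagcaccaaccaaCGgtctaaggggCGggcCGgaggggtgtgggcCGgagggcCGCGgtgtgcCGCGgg
GCNT2: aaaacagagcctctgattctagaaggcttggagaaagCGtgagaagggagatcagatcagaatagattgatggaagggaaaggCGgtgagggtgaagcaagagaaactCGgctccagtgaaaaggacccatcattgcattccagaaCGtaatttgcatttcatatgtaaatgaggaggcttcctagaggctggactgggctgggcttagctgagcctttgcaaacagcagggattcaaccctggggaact
MGAT5: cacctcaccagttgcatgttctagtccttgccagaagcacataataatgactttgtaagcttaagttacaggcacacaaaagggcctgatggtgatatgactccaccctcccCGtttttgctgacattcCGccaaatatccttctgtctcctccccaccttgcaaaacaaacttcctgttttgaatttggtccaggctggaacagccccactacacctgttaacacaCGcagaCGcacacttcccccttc
The 250 bases of MGAT2 hold 24 CG pairs and those of ST8SIA4 hold 13, against 4 each for GCNT2 and MGAT5. The RefSeq table gives a start region of 300 bases, 250 before and 50 after the start, for 13 of the 19 tested genes. Their CG pairs ranged from 3 (GCNT1, which rose) to 42 (MGAT4B), with a median of 16 against 14 over 35116 promoters in the table, and their GC content had a median of 63.7% against 58.7%. The sequence TTCCTAGAA, the core bound by BCL6, was searched on both strands and occurred in 0 of the 13 and in 0.373% of all promoters. The looser TTCNNNGAA, its own reverse complement, which includes the former, occurred in 0 of the 13 and in 7.66% of all promoters. These counts say only that the letters are not in these windows. The table holds 1 start per gene, and genes such as GCNT2 and MGAT5 have others.

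Ratios of counts within a library do not depend on how libraries are scaled. Of 7 ratios computed, all chosen after the values were seen, the largest shift was that of MGAT3 to MGAT2, which went from 2.52, 2.52 and 2.49 with wild-type BCL6 to 1.13, 1.02 and 1.15 with the mutant. The ratio of MGAT5 to MGAT2 was 2.33, 2.37 and 2.29 against 1.15, 1.2 and 1.14. Since the genes differ in length, these ratios show a shift between the rescues and not which transcript was more abundant. GCNT2 to GCNT1 was 0.622, 0.570 and 0.586 against 0.347, 0.353 and 0.357. ST6GAL1 to the sum of ST3GAL1, ST3GAL2, ST3GAL3 and ST3GAL4 was 13.5, 14.1 and 13.7 against 12.2, 12.5 and 11.5. FUT8 to MGAT3 rose from 0.399 ± 0.0123 to 0.870 ± 0.0395 (SD, n = 3), and ST8SIA4 to ST6GAL1 from 0.0161 ± 0.000877 to 0.0294 ± 0.000308. For MGAT3 to MGAT5 the values were closer, 1.08 ± 0.0116 against 0.947 ± 0.0821. The groups did not overlap in any of the 7, where 72.4% of all tested genes taken singly did not overlap. A two-sided exact permutation test gave p = 0.1 for each, before and after adjustment over the 7. That is the smallest value that 3 libraries against 3 can give. Where a ratio set a risen gene against a fallen gene, both without overlap, this outcome was fixed by the choice of genes. As all 7 were chosen after the values were seen, the test adds no support.

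**Figure D3:**
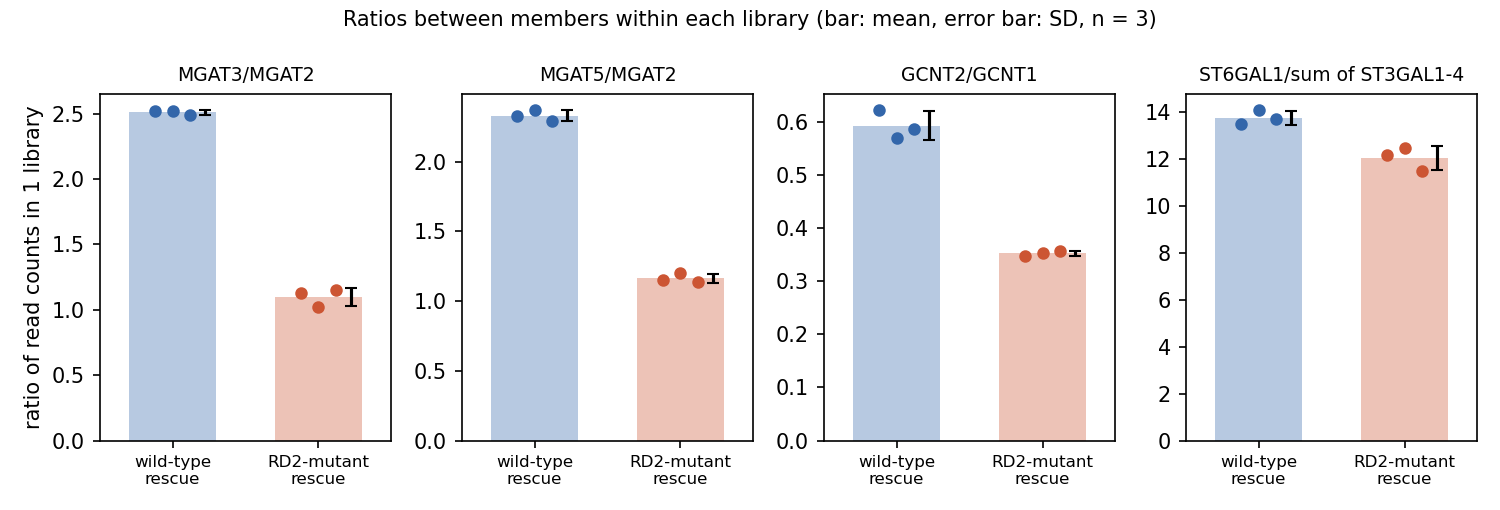
Ratios of read counts between genes within each library (points), with the group mean as a bar and the SD as an error bar (n = 3), for MGAT3 to MGAT2, MGAT5 to MGAT2, GCNT2 to GCNT1, and ST6GAL1 to the sum of the 4 tested ST3GAL genes. The first 3 ratios drop by 2.28-fold, 2-fold and 1.68-fold in the mutant rescue and the last by 1.14-fold.

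The spread between libraries was above counting noise for some genes and near or below it for others. For ST6GAL1 the coefficient of variation was 1.18% between wild-type and 3.51% between mutant rescue libraries, where counting alone gives 0.620% and 0.573%. MGAT5 varied by 6.52% between mutant libraries against 1.70% from counting. Between wild-type libraries MGAT1 varied by 1.28%, below the 2.02% that counting gives, and FUT8 by 2.21% against 2.16%. For ST3GAL4, with 54 to 90 counts per library, counting alone gives 13.2% and 11%, above the observed 6.11% and 8.89%.

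The remaining 24 genes had too few reads to be tested. Of these, 9 had 0 counts in all libraries, namely FUT6, FUT9, GCNT4, MGAT4C, ST6GAL2, ST6GALNAC1, ST8SIA2, ST8SIA3 and ST8SIA6. Another 12 never exceeded 3 counts, among them FUT4 and FUT7, which make the fucosylated ligands of selectins, and ST8SIA1, which makes disialylated gangliosides. FUT3 and FUT5, near-identical copies of FUT6 that could share reads, reached at most 1 and 2 counts. Only FUT1, GCNT7 and MGAT5B exceeded 3 counts in some library. FUT1, which makes the H antigen, had 4, 7 and 4 counts against 6, 3 and 6. GCNT7 had 3, 11 and 7 against 7, 10 and 7, and MGAT5B, a relative of MGAT5, had 2, 4 and 6 against 12, 3 and 7. The groups overlapped in all 3, and no difference was detectable at this depth. By family, the tested members were 4 of 5 ST3GAL, 1 of 2 ST6GAL, 2 of 6 ST6GALNAC, 1 of 6 ST8SIA, 3 of 11 FUT, 2 of 5 GCNT and 6 of 8 MGAT genes.

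The genes that make sugar donors, trim and extend the same glycans, or bind them were followed on 9 lists with 68 genes. Of 54 tested, 16 were higher, 25 lower and 13 did not pass, and the median log2 fold change was -0.08. The share called was 75.9%, beside the 70.1% of all genes given above. GNE, the enzyme that starts sialic acid synthesis, measured 43.1, 40.2 and 42.2 CPM in the wild-type and 22.6, 24.7 and 21.6 CPM in the mutant rescue (1.83-fold lower, log2 fold change -0.87, SE 0.055; edgeR, adjusted p = 1.24e-11). NANP, which removes the phosphate from the sialic acid precursor, fell slightly (log2 fold change -0.21), and SLC35A1, the transporter of the activated sugar into the Golgi, rose 1.5-fold, from 31.9 ± 1.30 to 47.7 ± 1.42 CPM (SD, n = 3). CMAS, which activates sialic acid, was at 84.4 ± 2.14 against 79.8 ± 4.83 CPM and did not pass (edgeR, adjusted p = 0.1). Of the 5 sialic acid supply genes 1 was higher and 2 lower, and all 8 tested sialyltransferase genes were higher. The shares over all tested genes were 35.4% higher and 34.8% lower, so the supply counts alone do not set these 5 genes apart.

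For fucose, 4 of 5 supply genes were lower and 1 higher, with a median log2 fold change of -0.61. Over all tested genes, 34.8% were called lower and 35.4% higher. The salvage enzyme genes FUK and FPGT fell by 0.80 and by 0.79 on the log2 scale, FUK from 18.3 ± 1.14 to 10.6 ± 0.68 CPM. The genes of the main synthesis route, GMDS and TSTA3, had log2 fold changes of -0.61 and -0.31. The higher one was the Golgi transporter gene SLC35C1 (log2 fold change 0.22; edgeR, adjusted p = 0.00320), the one list member not among the 4 smallest p. Genes that add fucose directly to proteins or remove it were mixed. POFUT1, which modifies Notch receptors, fell (-0.35), the lysosomal fucosidase gene FUCA1 rose (0.50), and FUCA2 and POFUT2 did not pass (0.41 and 0.12). The 3 tested sialidase and acetylesterase genes were lower, NEU1 (-0.20), SIAE (-0.81) and NEU3 (-0.11), while the sialic acid acetyltransferase gene CASD1 did not pass (-0.04).

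All 5 tested upstream trimming genes were called, 3 higher and 2 lower. Over all tested genes 70.1% were called, 35.4% higher and 34.8% lower, so many calls on a short list were common. MAN1A1, an early Golgi mannosidase, rose 3.29-fold, from 154.6, 162.6 and 158.4 CPM to 503.0, 545.6 and 515.3 CPM (log2 fold change 1.72, SE 0.036; edgeR, adjusted p = 1.01e-19). That is a larger change than any of the 19 transferases showed. Its relative MAN1A2 fell (-0.43), as did MAN2A1 (-0.70), which trims the N-glycan after MGAT1 has acted. MAN2A2, the paralogue of MAN2A1 in the same step, rose from 32.3 ± 3.58 to 48.5 ± 6.55 CPM (log2 fold change 0.59; edgeR, adjusted p = 0.00853), and MAN1C1 rose at a low level (0.784 to 1.67 CPM). For the donor of the branching enzymes, GNPNAT1 (-0.37) and UAP1 (-0.34) fell, GFPT1 rose (0.11), and PGM3 did not pass (0.12); 1 of 5 was higher and 2 lower. Of 7 lactosamine extension genes 3 were higher and 1 lower. B3GNT2, the main enzyme of lactosamine chain extension, rose from 36.7 ± 1.24 to 56.9 ± 2.75 CPM (0.63), B4GALT3 (0.19) and B4GALT4 (0.26) rose, and B4GALT2 fell (-1.07).

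Of 10 tested genes for starting O-glycans 1 was higher and 6 lower, beside 35.4% higher and 34.8% lower over all tested genes. C1GALT1C1, the chaperone that the core enzyme C1GALT1 needs, fell 2.05-fold, from 27.9, 28.9 and 27.1 CPM to 14.2, 13.6 and 13.2 CPM, and the starting enzymes GALNT12 (-1.0), GALNT2 (-0.46) and GALNT6 (-1.58) fell. C1GALT1 itself was the higher one (log2 fold change 0.30; edgeR, adjusted p = 4.11e-07), and GALNT7, another starting enzyme, did not pass (0.03). Among 9 readers and carriers of these glycans 5 were higher and 4 lower. CD22, the receptor for the product of ST6GAL1, measured 528.7, 493.3 and 515.6 CPM in the wild-type and 381.5, 357.4 and 374.6 CPM in the mutant rescue (1.38-fold lower; edgeR, adjusted p = 1.03e-10), whereas ST6GAL1 itself was 1.18-fold higher. SIGLEC10, another sialic acid receptor of B cells, fell 3.77-fold, from 8.33 ± 0.905 to 2.21 ± 0.237 CPM. Of the tested galectin genes, LGALS1 rose from 2.34 ± 0.226 to 9.13 ± 1.01 CPM. LGALS8 (log2 fold change 1.14) and, at a low level, LGALS3 (0.6) rose as well. Only LGALS9 fell, from 5.91 ± 0.367 to 2.22 ± 0.177 CPM.

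**Figure D4:**
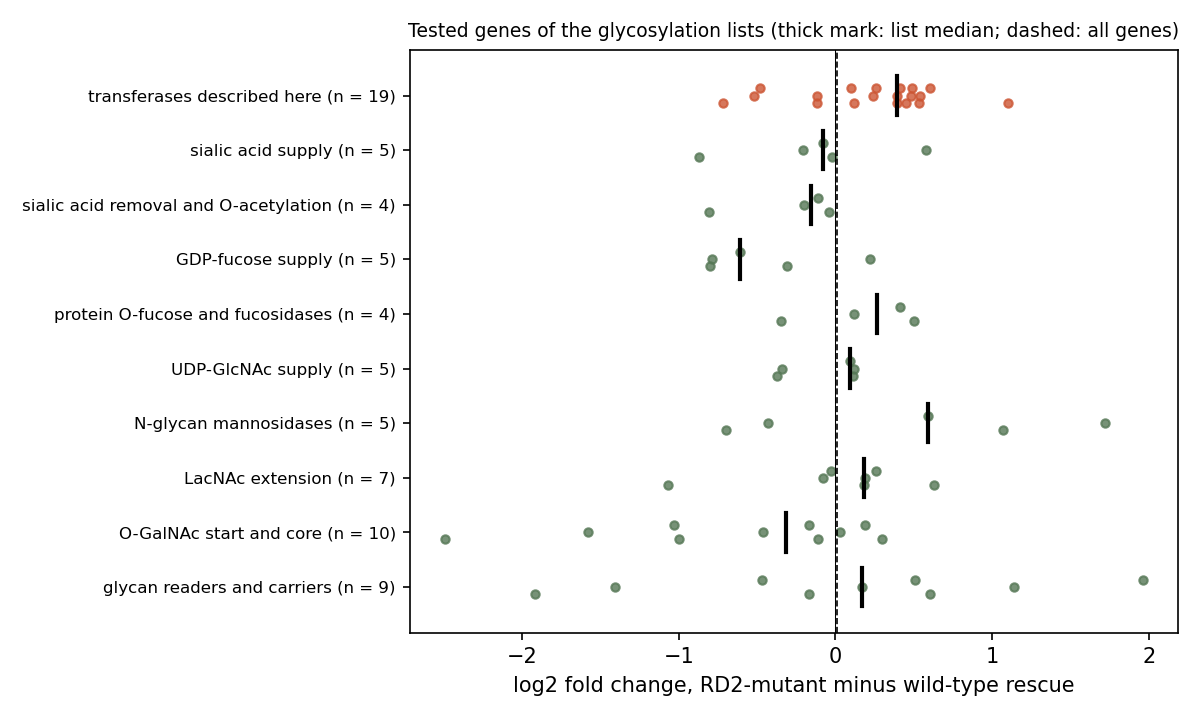
Log2 fold change, mutant minus wild-type rescue, of every tested gene on the 9 glycosylation lists, with the 19 transferases in the top row, list medians as thick marks and the median of all tested genes as a dashed line. The transferases have a median of 0.39, and the fucose supply genes the lowest list median at -0.61.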

How the data were processed

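Per the labels' protocols, Trizol was used for total RNA and Illumina's TruSeq RNA guide for the libraries. The submitters' processing notes name CASAVA 1.8.2, STAR and edgeR with build hg19. The counter, annotation, strand setting and treatment of multi-mapped reads were not given in the sources used here. Deposited values are raw counts for each gene symbol, 1 column per library, and they were used unchanged.

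Counts were analysed in R 4.3.3 with edgeR 4.0.16: filterByExpr at its defaults (12406 of 23250 genes kept), TMM scaling, robust quasi-likelihood fit on both groups without covariates, and Benjamini-Hochberg adjustment over every tested gene (threshold 0.05). The SE is the absolute log2 fold change divided by the square root of F, and 95% intervals use the fit's degrees of freedom. Transcript lengths and overlaps came from GENCODE v29 by symbol. Replicate libraries differed by more than counting noise (chi-square per degree of freedom 1.60 to 5.47 for genes with 20 or more counts in a pair), so all 6 were kept.

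The genes and lists were chosen with earlier results of these data known. All tested members were described, and up to 4 genes per pathway list with the smallest p were named. SLC35C1, MAN2A2, C1GALT1, GALNT7, LGALS3, LGALS8 and the overlapping genes SQSTM1, TTI2 and PRUNE2 were named outside this rule, after their values were seen. Alternatives were other scalings, DESeq2 1.42.0, limma-voom (limma 3.58.1), the likelihood ratio test, other filters, glmTreat, a replicate block and leaving out each library.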

Additional observations from a re-analysis of the deposited data

How the results depend on the processing

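Of the 15 genes called among the 19 tested, 13 kept their direction and call under all 16 alternatives, and 15 did so under all but the minimum of 1.2-fold, which GCNT1 and ST6GAL1 did not pass. None of the 19 changed sign. MGAT4B passed with library size scaling (adjusted p = 0.0419), with at least 1 CPM in all libraries (0.0477), with the replicate block (0.0285) and without mutant library 2 (0.0122); the cause was not tested. Against 1.2-fold, 4585 genes were called in all in place of 8702, and 9 pathway genes were higher in place of 16, as that test asks for a larger change. Leaving out each library gave 8099 to 8916 calls over all genes, 12 to 13 higher and 3 lower members, and 14 to 18 higher and 24 to 27 lower pathway genes. DESeq2 called 12 higher and 3 lower members. Same-numbered libraries had correlations of deviations of 0.14, 0.17 and -0.05, and differently numbered ones had -0.18 to 0.07. The sources used here do not state that the numbers mark pairs, so the main fit did not take them as pairs. With the replicate block 9285 genes were called, with 13 higher and 3 lower members and 17 higher and 26 lower pathway genes. Scaling moved the median of all genes by at most 0.026 on the log2 scale. Depth limits the 24 untested genes, for which differences of a few counts cannot be seen.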
